A study of Homo sapiens with 3 samples.

Results

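The genes described here encode mitochondrial ribosomal proteins. They were chosen by name, as every platform gene symbol made of MRPL or MRPS, a number and at most 1 further letter, without use of any measured value. The rule found 77 genes among the 20399 named genes of the array, of which 48 carry a large-subunit symbol (MRPL) and 29 a small-subunit symbol (MRPS).

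The study measured messenger RNA in LNCaP, a prostate cancer cell line that responds to androgen, after transfection with small interfering RNAs (siRNAs) against SHOT-RNAs, which are fragments of tRNAs. The fragments targeted were the 5' part of a lysine tRNA (5'-Lys, 20 nM siRNA), the 5' part of an aspartate tRNA (5'-Asp, 20 nM) and the 3' part of an aspartate tRNA (3'-Asp, 10 nM). Cells were harvested 72 hours after transfection, and each knockdown was set against a control siRNA labelled R-Luc on 1 array that read both samples in different dyes, Cy3 and Cy5. There was thus 1 array per knockdown, with no dye swap of any knockdown and no replicate, so no test of any difference was possible. The groups share the cell line and the transfection, and the 10 nM group differs from the others in dose as well as in target. The tRNA fragments themselves were not analysed here, so the size of each knockdown is unknown.

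Values given for all arrays stand in the order 5'-Lys, then 5'-Asp, then 3'-Asp, called array order below, unless another is stated. All ratios are centred log2 ratios of Cy3 over Cy5 from the deposited intensities, in which 0 is the median of the 10200 genes taken as measured. On the 5'-Lys array the dye labels and the column names both make this knockdown over control. On both Asp arrays they disagree: the dye labels put the knockdown in Cy3, while the column names call the first column the control. The 10 E1A spike-in probes gave a Pearson r of at least 0.999 for their ratios between any pair of arrays, so the first column holds the same dye throughout. The direction of the Asp ratios is therefore not settled. They are given as higher or lower in Cy3, and every one of their signs would turn under the column names. It was not stated whether the arrays shared 1 control RNA, so values of different arrays are given side by side without a correlation or an overlap.

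Mitochondria keep their own ribosome to translate the few proteins encoded by mitochondrial DNA, all of them core subunits of the respiratory chain and ATP synthase. Its RNAs are made inside the organelle, but its proteins are encoded in the nucleus, made in the cytoplasm and imported. Many descend from bacterial ribosomal proteins, while others were added in the mitochondrial lineage. The small subunit holds the decoding site, and the large subunit forms peptide bonds and passes the new chain to the inner membrane.

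The start regions of these genes show a feature that the rule did not use. In RefSeq (GRCh38.p14), start regions from 250 bases before to 50 bases after a gene's start were found for 69 of the 77 genes. The letters ATGGCGGC, searched on both strands as the core bound by the zinc finger factor YY1, stood in the start regions of 18 of the 69 (26.1%), against 3.67% of 27305 genes in the table and 8.19% of its 8305 measured genes. Of their 19 sites, 16 were read as written and 16 lay after the gene start. These letters contain ATG, so a site after the start can include a start codon. A match describes the letters and shows no binding. For 6 genes of both subunits, a site read as written after the gene start is printed, with the searched letters in capitals and 9 bases on either side. The shared letters follow from the search itself. Sites before the start, such as another one of MRPL19, are not printed.
MRPS15, chr1:36464341-36464366, minus strand: tgggccagcATGGCGGCgcccatgta
MRPS35, chr12:27710835-27710860, plus strand: ctcgcagccATGGCGGCcgccgcgct
MRPS10, chr6:42217833-42217858, minus strand: accggcaagATGGCGGCgcggacagc
MRPL38, chr17:75904859-75904884, minus strand: ggagggaagATGGCGGCgccctggtg
MRPL19, chr2:75646799-75646824, plus strand: ctagctggcATGGCGGCctgcattgc
MRPL1, chr4:77862840-77862865, plus strand: gtgcccaacATGGCGGCggccgtaag

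Letters of other factors known for mitochondrial genes, and the TATA box, had shares nearer those of measured genes. CCGGAAGT, the core of ETS factors such as GABPA, stood in 12 of 69 (17.4%), against 4.95% of all genes in the table and 11.0% of measured genes. GCGCA, any base and then GCGC, the palindrome of NRF1, stood in 9 of 69 (13.0%), against 6.98% and 14.6%. CACGTG, the E-box, stood in 10 of 69 (14.5%), against 8.77% and 13.0%. TATAAA stood in 4 of 69 (5.80%), against 14.0% and 8.10%. Each was searched on both strands. Among the 69 genes, 26 (37.7%) had a neighbour that started within 1000 bases on the other strand, against 20.1% of all genes and 31.0% of measured genes. MRPL46 and MRPS11 are such a pair.

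All 77 genes were measured, that is, their mean log2 signal over all columns was at or above the median of named genes (7.03). Of these, 69 were also above the 75th percentile. Their intensities ran from 133 to 55702. As a gauge of variation, the SD of a gene's Cy5 signal over the 3 arrays had a median of 0.17 log2 units among the 77 genes (0.02 to 0.38) and 0.12 among measured genes. This gauge mixes array, dye and culture, and for the Asp arrays it also depends on what Cy5 holds. Of the luminal prostate markers found on the array, 8 of 8 were measured, with median ratios of -0.46, 0.01 and -0.04 in array order. Their ranges were -0.89 to 0.65, -0.73 to 0.58 and -1.01 to 0.34. On 5'-Lys 5 of the 8 were lower by more than 0.32 log2 units, against 19.2% of measured genes, and 1 was higher, at 0.65. The low ones included STEAP2 at -0.89, HOXB13 at -0.74 and KLK3 at -0.70. On 3'-Asp 2 of the 8 were lower by that much, against 12.2% of measured genes, with KLK2 at -1.01 and KLK3 at -0.97. There 1 was higher by that much, against 11.6%, and 4 of the 8 were above 0. Of markers of leukocytes, endothelium and fibroblasts found on the array, 1 of 8 was measured, COL1A1, with ratios of 0.47, 0.54 and 0.18. Their part in the results was not tested. In RNA from a cell pool, fewer cells of a kind and less RNA per cell cannot be told apart.

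As a group, the genes for mitochondrial ribosomal proteins lay close to the average gene. The median ratio was 0.11 on the 5'-Lys array (52 of 77 above 0, 67.5%), -0.09 on the 5'-Asp array (24 of 77, 31.2%) and 0.12 on the 3'-Asp array (58 of 77, 75.3%), where by centring the background is 50% of measured genes. Each median was smaller than the SD of 0.15 that the group's own median Cy5 signal showed over the arrays. The genes were also less spread than measured genes at large, with SDs of 0.35, 0.23 and 0.24 against 0.39, 0.33 and 0.30 in array order. They were brighter, however, with 69 of 77 above the 75th percentile of signal. Neither this comparison nor the background shares below were matched for signal.

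The difference between arrays lay in Cy5 more than in Cy3. Relative to the median measured gene of its own column, the group's median log2 Cy3 signal was 3.08, 3.11 and 3.12 in array order. The median Cy5 signal was 2.85, 3.15 and 2.93. A further setting, called the mean Cy5 signal, took the mean Cy5 signal of all arrays as the denominator. It first matched the distribution of average intensity between arrays (Aquantile in limma), which changes Cy3 as well as Cy5. The group medians then became 0.03, 0.03 and 0.09, with 42, 45 and 54 of 77 genes above 0. Under this setting the 5'-Lys median shrank and the 5'-Asp median changed sign. The share of the new denominator and of the matching step in this was not tested. Centring on all named genes instead gave medians of 0.03, -0.17 and 0.05, with 42, 15 and 45 of 77 above 0. This centring moved every gene of an array by the same amount. The group's distance from the median measured gene was therefore unchanged. The share of measured genes above 0 was not computed under it, so the background share given earlier does not apply to these counts.

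Few ratios were large. Past 0.32 log2 units, 22 genes were higher and 8 lower on the 5'-Lys array, where the background was 16.8% higher and 19.2% lower and the group's shares were 28.6% and 10.4%. On the 5'-Asp array 4 were higher and 11 lower, against 13.8% and 14.4%, and on the 3'-Asp array 14 were higher and 3 lower, against 11.6% and 12.2%. These splits lean the same way as the medians and share their dependence on the mean Cy5 setting. Under it, 14 were higher and 15 lower on 5'-Lys, 7 and 7 on 5'-Asp, and 13 and 4 on 3'-Asp. The shares of measured genes were not computed under this setting, so the background shares above do not apply to these counts. At 1.5-fold, 4 genes passed on the 5'-Lys array against a background of 11.4%, 1 on the 5'-Asp array against 7.89%, and 1 on the 3'-Asp array against 4.86%. At 2-fold, MRPS6 on the 5'-Lys array was the only one (background 1.96%), with 0 on the 5'-Asp array (background 0.892%) and 0 on the 3'-Asp array (background 0.49%).

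**Figure D1:**
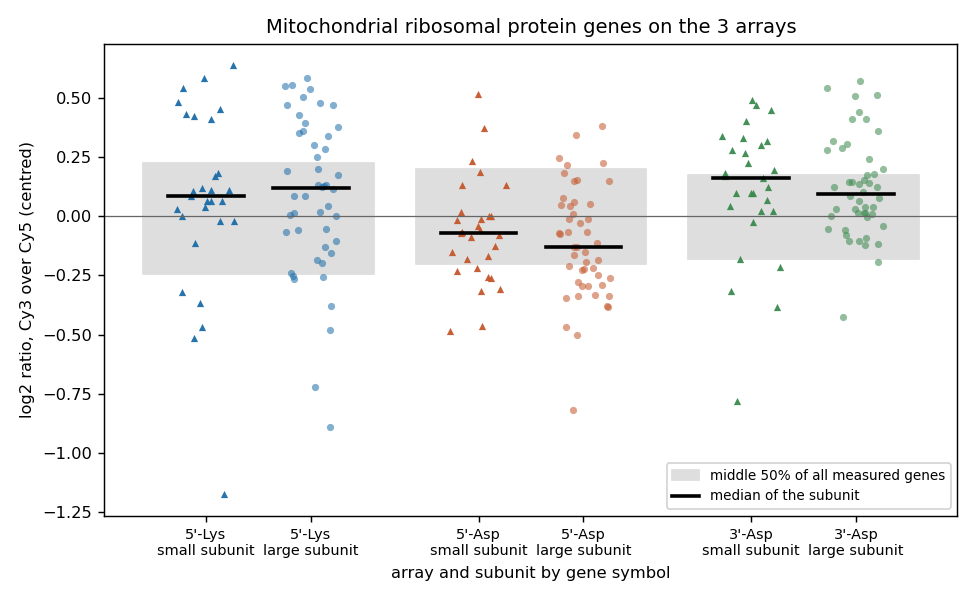
Centred log2 ratio of Cy3 over Cy5 for each of the 77 genes on each array, with small-subunit symbols as triangles and large-subunit symbols as circles. Black bars are subunit medians and grey bands the middle 50% of measured genes. The subunits overlap on every array, and the lowest point is MRPS6 on the 5'-Lys array.

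The small and large subunits did not separate. By symbol, the small-subunit medians were 0.09, -0.07 and 0.16 in array order, and the large-subunit medians were 0.12, -0.13 and 0.10. The difference, small minus large, was -0.03, 0.06 and 0.06, in each case smaller than the spread of 0.15 in the group's median Cy5 signal. Symbols do not always match the assembled ribosome: the proteins of MRPS30 and MRPS18A sit in the large subunit, and that of MRPS36, now named KGD4, belongs to the 2-oxoglutarate dehydrogenase complex. With genes placed by structure and MRPS36 left out, the difference was -0.04, 0.07 and 0.05.

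Descent from bacteria gave no clear split either. In the small subunit, the 16 genes with a bacterial counterpart had medians of 0.07, -0.06 and 0.23, and the 10 mitochondria-specific genes 0.09, -0.10 and 0.10, in array order. In the large subunit, the 30 genes with a counterpart had 0.12, -0.13 and 0.09, and the 20 specific ones 0.06, -0.15 and 0.10. The 5 genes of the stalk and its base, where translation factors dock, had the highest subgroup median on 5'-Lys, 0.34. Within them MRPL12, the stalk protein itself, had ratios of 0.35, -0.13 and 0.44, while MRPL10, which anchors it, had -0.27, -0.13 and 0.01. The 6 genes around the exit tunnel, where the new chain leaves, had medians of 0.01, -0.18 and 0.03. The 6 genes of the central protuberance, at the top of the large subunit, had 0.01, -0.24 and -0.04.

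MRPS6, a small-subunit protein with a bacterial counterpart, had the lowest ratio of the group. Its intensity on the 5'-Lys array was 4538 in the knockdown (Cy3) and 10125 in the control (Cy5), on the 5'-Asp array 8018 and 9794, and on the 3'-Asp array 8155 and 9454. The 5'-Lys knockdown column is the low one, while the other 5 lie between 8018 and 10125. The ratios were -1.17, -0.31 and -0.22, and on 5'-Lys the gene was 2.26-fold lower, against a Cy5 SD of 0.10 log2 units. It rests on 1 probe, and RefSeq names 3 MRPS6 pseudogenes.

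RefSeq gives MRPS6 the same start as SLC5A3, a sodium and myo-inositol cotransporter, a gene looked at after the values of MRPS6 were seen. SLC5A3 intensities in Cy3 and Cy5 were 1402 and 3320 on the 5'-Lys array, 1547 and 2837 on the 5'-Asp array, and 1932 and 2907 on the 3'-Asp array. Its ratios were -1.26, -0.89 and -0.59, lower in Cy3 on each array. On 5'-Lys both genes were more than 2-fold lower in the knockdown, whereas on the Asp arrays SLC5A3 was further from 0 than MRPS6. The shared start region is printed because it serves both genes. It is 82% G and C, holds none of the letters searched, and so has no capitals.
MRPS6, chr21:34073328-34073627, plus strand: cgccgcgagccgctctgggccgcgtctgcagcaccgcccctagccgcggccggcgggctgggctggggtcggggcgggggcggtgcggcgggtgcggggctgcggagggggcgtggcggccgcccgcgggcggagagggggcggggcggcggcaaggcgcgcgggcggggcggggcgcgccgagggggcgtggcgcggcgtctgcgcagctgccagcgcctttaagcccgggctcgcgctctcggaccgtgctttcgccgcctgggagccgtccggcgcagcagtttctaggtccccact

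**Figure D2:**
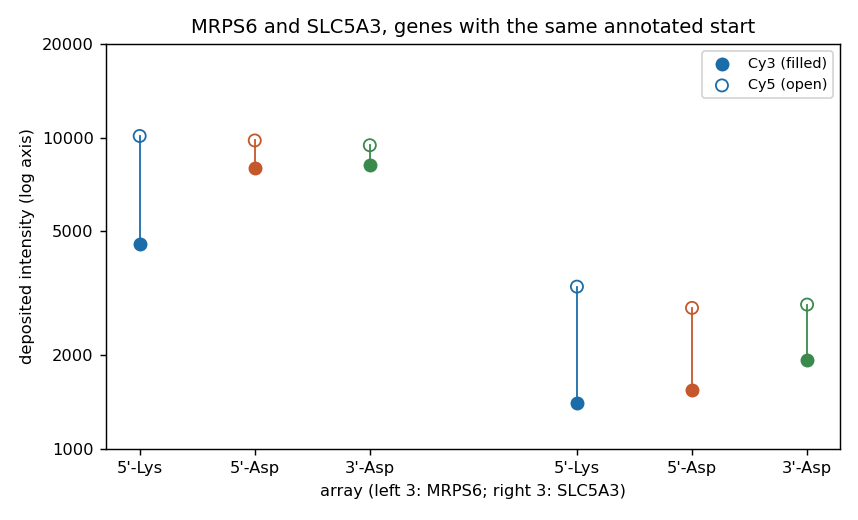
Deposited intensity (log axis) of MRPS6 and SLC5A3 in Cy3 (filled) and Cy5 (open) on each array, with 1 array per knockdown. The Cy3 point lies below the Cy5 point in all 6 pairs, and MRPS6 has its widest gap on the 5'-Lys array, 4538 against 10125.

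MRPL19 and MRPL43 also passed 1.5-fold on the 5'-Lys array, but their probes disagreed. MRPL19, a large-subunit protein with a bacterial counterpart, had a mean ratio of -0.89 from 3 probes. Its brightest probe read 3745 in the knockdown and 8924 in the control, a ratio of -1.27, the next gave -1.58 and the dimmest 0.17. Thus 2 of 3 probes, the brightest among them, were lower in the knockdown. On the 5'-Asp and 3'-Asp arrays the mean was -0.26 and -0.06.

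MRPL43, a mitochondria-specific large-subunit protein, gave a mean of -0.72 that came from 1 dim probe. That probe read 5.13 and 15.7 on the 5'-Lys array, where the median of the knockdown column was 94.0, and gave -1.63. The bright probe read 3451 and 3008 and gave 0.18. By the bright probe the gene was not lower in the knockdown, so its direction depends on the probe.

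MRPS21, a small-subunit protein with a bacterial counterpart, was the only gene at least 1.5-fold higher on 5'-Lys. Its intensities in Cy3 and Cy5 were 45027 and 28634 on the 5'-Lys array, 36799 and 28036 on the 5'-Asp array, and 37743 and 27645 on the 3'-Asp array. Cy5 was steady and Cy3 was above it on each array. The ratios were 0.64, 0.37 and 0.45, and the gene was 1.56-fold higher on 5'-Lys. Against the mean Cy5 signal its 5'-Lys ratio was 0.58, just short of 1.5-fold. It rests on 1 probe, and RefSeq names 9 MRPS21 pseudogenes. MRPS34 and MRPL20, with 0.58 each, lay just under the threshold on that array.

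MRPL45, which lies at the exit tunnel and tethers the ribosome to the inner membrane, was the only gene past 1.5-fold on the 5'-Asp array. Its intensities in Cy3 and Cy5 were 2782 and 4839 there, 4734 and 4641 on the 5'-Lys array, and 4134 and 4433 on the 3'-Asp array. The low value is the 5'-Asp Cy3 column, and the other 5 are close together. The ratio was -0.82 on 5'-Asp, 1.76-fold lower in Cy3, against 0.01 on 5'-Lys and -0.10 on 3'-Asp. Both probes were lower in Cy3 on the 5'-Asp array, at -0.96 and -0.68. RefSeq names 2 MRPL45 pseudogenes. Its start region is printed because it holds both the NRF1 letters and the E-box, in capitals.
MRPL45, chr17:38296918-38297217, plus strand: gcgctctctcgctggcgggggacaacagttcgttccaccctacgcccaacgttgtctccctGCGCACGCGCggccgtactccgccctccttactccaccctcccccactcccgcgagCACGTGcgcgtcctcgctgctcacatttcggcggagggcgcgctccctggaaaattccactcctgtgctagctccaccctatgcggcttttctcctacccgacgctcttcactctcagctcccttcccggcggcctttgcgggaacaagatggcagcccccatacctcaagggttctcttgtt

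MRPS25, a mitochondria-specific small-subunit protein, was the only gene past 1.5-fold on the 3'-Asp array. Its intensities in Cy3 and Cy5 were 711 and 1219 there, 937 and 1323 on the 5'-Lys array, and 574 and 782 on the 5'-Asp array. Cy3 was below Cy5 on each array. The ratios were -0.78, -0.51 and -0.46 in that order, but the Cy5 SD of the gene was 0.31, high for the group, and against the mean Cy5 signal its 3'-Asp ratio was -0.57, short of 1.5-fold, while its 5'-Asp ratio became -0.82. It rests on 1 probe.

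**Figure D3:**
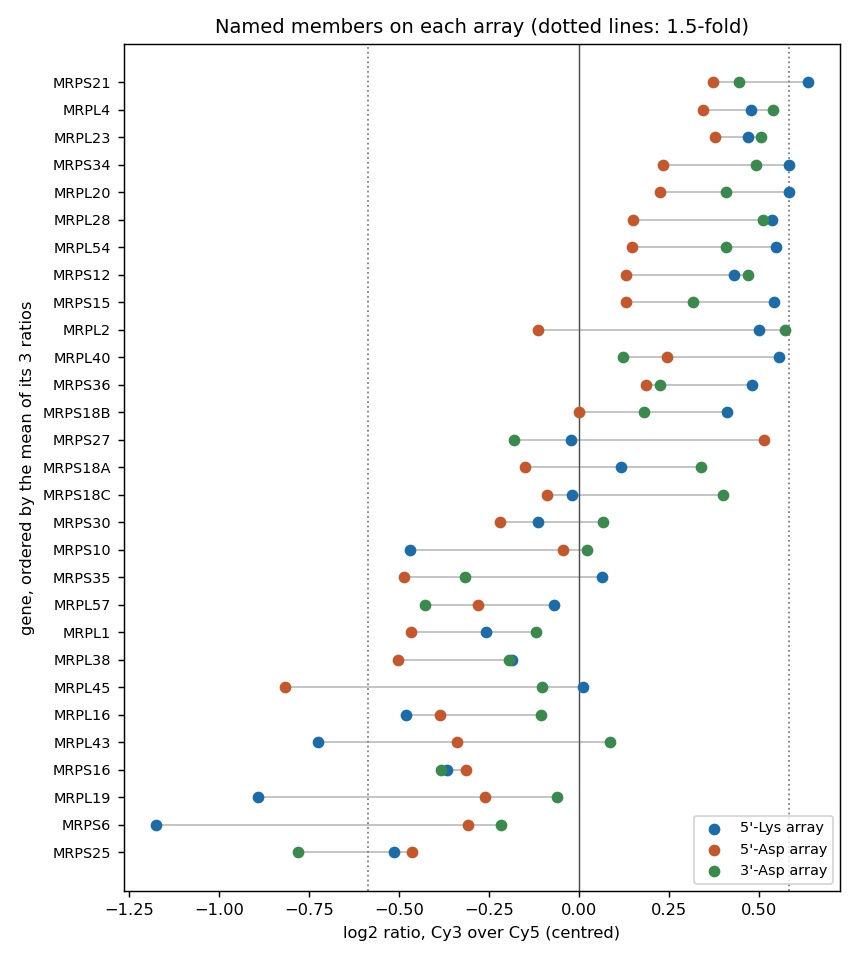
Centred log2 ratio of Cy3 over Cy5 of 29 named genes on the 3 arrays, ordered by the mean of their ratios, with dotted lines at 1.5-fold. MRPS6 (-1.17) is lowest on 5'-Lys, MRPL45 (-0.82) on 5'-Asp and MRPS25 (-0.78) on 3'-Asp.

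Several genes had like ratios on every array. MRPL4, a large-subunit protein with a bacterial counterpart, had 0.48, 0.34 and 0.54 in array order, and MRPL23, at the exit tunnel, had 0.47, 0.38 and 0.51. MRPS16, a small-subunit protein with a bacterial counterpart, had means of -0.37, -0.31 and -0.38, but its probes differed. Its bright probe gave -0.20, -0.16 and -0.40, and the dimmer one -0.53, -0.47 and -0.37. Such gene-specific offsets cannot be told apart from a dye effect, because no knockdown was measured in both dye orientations. By the dye labels all arrays have the same orientation, while by the column names the Asp arrays are reversed against 5'-Lys. Among the 71 measured cytoplasmic ribosomal proteins, RPL7A had like ratios too, -0.52, -0.50 and -0.52, and RPS18 had 0.41, 0.45 and 0.48. Both lay near the ends of that list, in which 61, 62 and 64 of 71 were within 0.32 log2 units of 0. These are 85.9%, 87.3% and 90.1%, against 64.0%, 71.8% and 76.2% of measured genes. The cause of the ratios of RPL7A and RPS18 was not tested.

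Other genes differed between arrays. MRPL2, a core protein of the peptidyl transferase region, had 0.50, -0.11 and 0.57, and MRPL40, of the central protuberance, 0.56, 0.25 and 0.12. MRPS35 had 0.07, -0.49 and -0.32, MRPS10 -0.47, -0.04 and 0.02, and MRPL16 -0.48, -0.38 and -0.10. MRPL38, of the central protuberance, had means of -0.18, -0.50 and -0.19, but its probes differed. The bright probe gave -0.37, -0.16 and 0.06, and the dim one 0.00, -0.84 and -0.45, so the low 5'-Asp mean came mainly from the dim probe. MRPS27, a pentatricopeptide repeat protein, was highest on 5'-Asp at 0.51, and its bright probe gave 0.39 there. On 3'-Asp its probes were opposed, 0.18 and -0.54, the dim one reading 19.8 and 28.8.

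The MRPS18 paralogs are related proteins that occupy different places in the ribosome. MRPS18A, in the large subunit, had ratios of 0.12, -0.15 and 0.34 in array order. MRPS18B had 0.41, 0.00 and 0.18, and MRPS18C -0.02, -0.09 and 0.40. The bright MRPS18B probe gave 0.22, -0.17 and -0.02, and the dimmer one 0.60, 0.17 and 0.38. On both Asp arrays their signs were thus opposite. The mean for MRPS18C on 5'-Lys hides probes of 0.46 and -0.50, of which the second was dim (22.6 and 31.5). On 5'-Asp the same probes gave 0.12 and -0.30, the second again dim (16.7 and 20.4). MRPS30, also of the large subunit, had -0.11, -0.22 and 0.07, and MRPS36 had 0.48, 0.19 and 0.23.

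**Figure D4:**
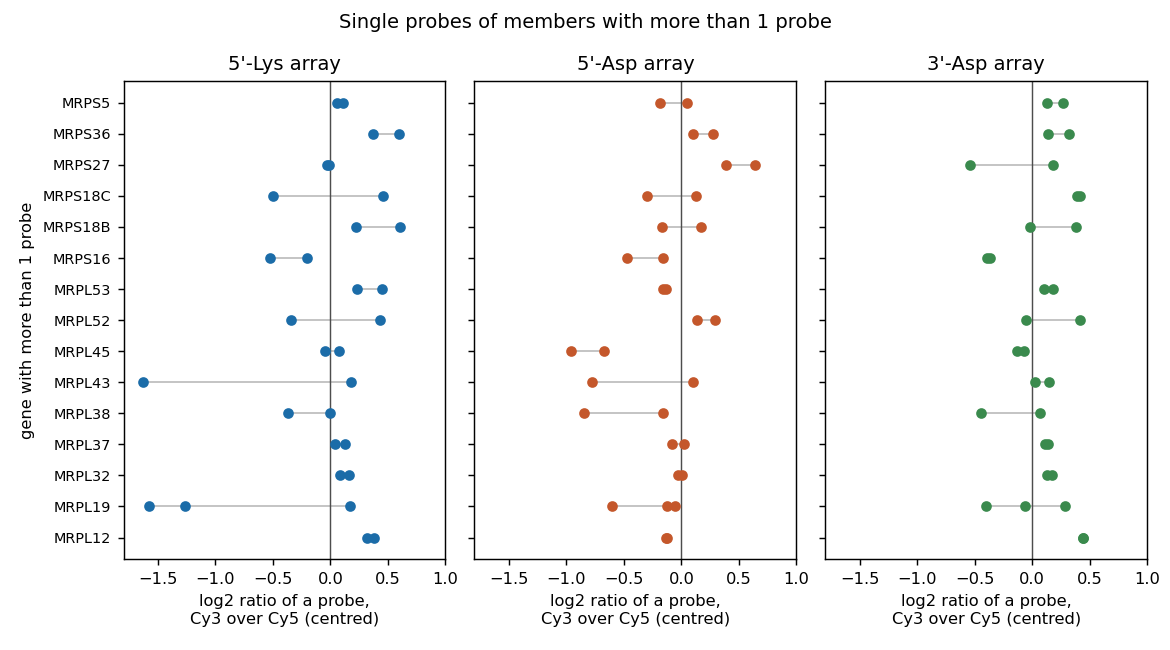
Centred log2 ratio of each probe for the 15 genes with more than 1 probe, with a panel per array and a line joining probes of a gene. On the 5'-Lys array the probes of MRPL43 lie at -1.63 and 0.18, while those of MRPL45 lie together on every array.

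The products of mitochondrial translation join nuclear-encoded partners. The 78 measured nuclear genes for respiratory chain and ATP synthase subunits had medians of 0.25, 0.04 and 0.15 in array order. On 5'-Lys 29 (37.2%) were past 0.32 log2 units higher and 3 (3.85%) lower, against 16.8% and 19.2% of measured genes. On 5'-Asp 7 (8.97%) were higher and 8 (10.3%) lower, against 13.8% and 14.4%. On 3'-Asp 15 (19.2%) were higher and 1 (1.28%) lower, against 11.6% and 12.2%. Cytoplasmic ribosomal proteins (71 measured) had medians of -0.10, -0.06 and -0.05. On 5'-Lys the mitochondrial ribosomal proteins, at 0.11, lay between these lists. A gene of the respiratory list, SDHD, a membrane anchor of succinate dehydrogenase, had intensities of 1337 in Cy3 and 3634 in Cy5 on the 5'-Asp array, a ratio of -1.46 from 3 probes, against 0.21 on 5'-Lys and -0.11 on 3'-Asp.

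Lists for making and using the mitochondrial ribosome had medians within 0.16 of 0. The 26 assembly factors had medians of 0.00, -0.04 and 0.00, and ERAL1, a chaperone of the small-subunit RNA, had 0.70 on 5'-Lys. The 16 measured translation factors had 0.07, -0.06 and 0.11, and GFM2, which helps recycle ribosomes, had -0.69 on 5'-Lys. The 19 measured mitochondrial aminoacyl-tRNA synthetases had -0.03, -0.15 and 0.04, with PARS2 at 0.64 on 5'-Lys. The 21 genes of mitochondrial transcription and RNA processing had -0.11, -0.16 and -0.11, with MTERF1 at -0.66 on 5'-Asp.

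**Figure D5:**
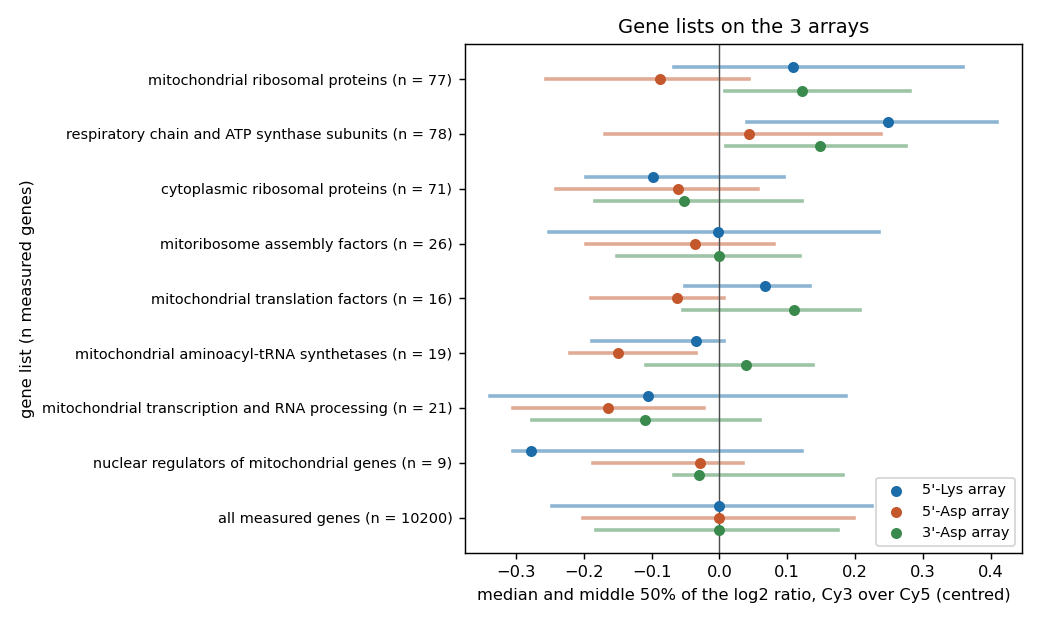
Median (point) and middle 50% (line) of the centred log2 ratio of Cy3 over Cy5 for each gene list on each array. The respiratory chain list lies furthest right on 5'-Lys (0.25), the mitochondrial ribosomal proteins at 0.11, and the cytoplasmic ribosomal proteins at -0.10.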

How the data were processed

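Intensities of 34183 probes (56 of them control or spike-in probes) in 2 columns per array are called raw in the deposited file headers. Near-equal column medians (94.0 and 95.0 for 5'-Lys, 70.7 and 70.9 for 5'-Asp, 79.7 and 80.9 for 3'-Asp) make earlier background correction and dye balancing likely, but no step is stated, and scanner flags were not used. The deposited series values, a score, are signed folds of the first over the second column times 1 constant per array (log2 of -0.02, -0.02 and -0.01), with medians of 1.06, 1.07 and 1.05. The number of arrays limits the precision.

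Symbols came from the platform annotation, in which 28048 probes had 1 symbol and 6079 had none or more than 1. Of the 28048, 25515 were named through a RefSeq accession. Log2 intensities of a gene's probes were averaged, genes at or above the 50th percentile of mean signal were kept, and ratios were centred on their median. Named genes were, per array and by mean ratio, the 6 highest and 6 lowest, the 5 with the largest range, all past 1.5-fold, the MRPS18 paralogs, MRPS30 and MRPS36, and the 3 extremes of each comparison list. Of the comparison lists' extremes, those most relevant to the text are named. Although the rule for members used gene names only, the members and lists were chosen with earlier results of these data known. The steps were tested on simulated data. Alternatives were limma 3.58.1 (R 4.3.3) loess and normexp (offset 50), the deposited folds, the mean Cy5 signal, other filters, centrings, thresholds and directions, and the brightest probe. The mean Cy5 setting took both Cy3 and Cy5 after Aquantile normalization between arrays in limma. Other steps used Python 3.11.15, numpy 2.4.6 and pandas 2.3.3.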

Additional observations from a re-analysis of the deposited data

How the results depend on the processing

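No paired analysis was possible because each group has 1 array, and for the same reason no replicate could be left out. Of 99 recomputed group medians, subunit differences and counts, 85 kept within the spread or within 1.5 times, and 14 moved. The spread of 0.15 exceeds every group median and subunit difference, so even a changed sign could count as kept. Some values also cannot change under a setting, such as the subunit differences under another centring. The 85 is therefore no measure of robustness. The number of genes at least 1.5-fold apart on the 5'-Lys array, 4, became 2 with the 75th percentile filter, 30 at 0.32 log2 units and 1 at 2-fold. On the 3'-Asp array, 1 became 2 against the mean Cy5 signal (MRPL2 and MRPL4, both higher), 0 with the 75th percentile filter, 17 at 0.32 log2 units and 0 at 2-fold. On the 5'-Asp array, 1 became 2 against the mean Cy5 signal, with no filter and when centred on all named genes, 15 at 0.32 log2 units and 0 at 2-fold. By the column names the group medians were -0.12 on 3'-Asp and 0.088 on 5'-Asp, MRPS25 was at 0.78 on 3'-Asp and MRPL45 at 0.82 on 5'-Asp. With the brightest probe MRPL43 was at 0.18 on 5'-Lys. Against the mean Cy5 signal the 5'-Asp median turned to 0.03, and on 5'-Lys no gene was 1.5-fold higher. Centring on all named genes gave 0 higher and 4 lower on 5'-Lys, against 1 and 3. Of 351 single-gene values, 305 stayed within the Cy5 spread. The sign changed in 26, of which 24 are all the Asp values under the column names, and the other 2 are MRPL43 on 5'-Lys and MRPL38 on 3'-Asp (0.06) with the brightest probe. The causes were not tested. With 1 array per knockdown, and thus 1 dye orientation for each knockdown, a knockdown effect, a dye effect and an array effect cannot be told apart.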

Other observations

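Among 9 measured nuclear regulators of mitochondrial genes, the receptor ESRRA and the ETS factor GABPA were lower in the 5'-Lys knockdown. ESRRA read 2659 in the knockdown and 5388 in the control, a ratio of -1.04 (SD between its probes 0.05). Its Cy3 and Cy5 intensities on the 5'-Asp array were 5921 and 5757, and on the 3'-Asp array 5950 and 5234, so the 5'-Lys knockdown column is the low one. GABPA read 430 and 758 on 5'-Lys, a ratio of -0.83, with -0.59 on 5'-Asp and -0.23 on 3'-Asp. YY1 had -0.28, -0.19 and -0.24, and NRF1 0.12, -0.03 and 0.36.

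The genes with given letters in the start region differed in their ratios to unlike degrees. The median of the 18 genes with the YY1 letters was 0.03 on 5'-Lys, against 0.11 for those without, -0.20 against -0.07 on 5'-Asp, and 0.03 against 0.12 on 3'-Asp. The median of the 12 genes with the ETS letters was 0.15 on 5'-Lys, against 0.09 for those without, -0.19 against -0.07 on 5'-Asp, and 0.12 against 0.10 on 3'-Asp. The 9 genes with the NRF1 letters had 0.02 against 0.11, -0.13 against -0.07 and 0.10 against 0.11 in the same order, and the 10 with the E-box 0.10 against 0.11, -0.07 against -0.08 and 0.12 against 0.10. The widest gaps were at the 4 genes with TATAAA (MRPS36, MRPL18, MRPL54 and MRPS15), with 0.51 against 0.09, 0.14 against -0.08 and 0.27 against 0.10, though MRPL18 itself had -0.20, -0.25 and -0.09. These are descriptions of single arrays, and whether such genes respond differently was not tested.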
